A study of Mus musculus with 51 samples.

Results

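Gene expression was compared between wild-type common myeloid progenitors (CMP) and wild-type haematopoietic stem cells (HSC), both collected from the bone marrow of mice by flow cytometric sorting. The samples were chosen by their titles, which gave 9 arrays of 5 CMP replicates and 5 arrays of 5 HSC replicates, 14 of the 51 arrays in the series. For 4 CMP replicates the titles name a first and a second run. These runs were averaged on the log2 scale, so that 10 of 43 replicates entered the comparison. The titles do not say if a run is a new labelling or a repeat scan. The remaining arrays hold Mll-AF9 knock-in cells and the other wild-type populations, and neither group described here carries the knock-in allele. Cells were collected in extraction buffer, total RNA was amplified in a 2-cycle labelling reaction, and 1 biotin-labelled sample was hybridised per Affymetrix array. The sources used here do not give the antibodies of the sort, nor the strain, age or sex of the animals. The labels leave unsaid if each replicate is a separate animal, and p-values then cover only the variation among these samples, part of which may be technical. In bulk RNA, fewer cells of a type and less RNA per cell cannot be told apart.

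Haematopoietic stem cells renew themselves and supply all blood lineages, and most of them rest outside the cell cycle. Common myeloid progenitors lie downstream and give rise to red cells, platelets, granulocytes and macrophages, but not to lymphocytes. The choice among these fates is tied to antagonistic transcription factors. Gata1 serves red cells and megakaryocytes, Klf1 serves red cells, and Cebpa and Spi1 serve granulocytes and macrophages. A set including Mecom, Hlf, Meis1 and Hoxa9 maintains the stem cell state.

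The arrays of both groups followed nearly the same distribution of values. CMP values were deposited with more decimals than HSC values, so they may have been written apart. The mean of 115 genes not used in blood cells (olfactory, vomeronasal and taste receptors and keratin-associated proteins) was 3.19 ± 0.04 in CMP and 3.22 ± 0.03 in HSC on the log2 scale (SD, n = 5 each; exact permutation p = 0.254, two-sided). The median over all genes was 4.93 ± 0.05 in CMP and 5.05 ± 0.07 in HSC, a shift of -0.11 (exact permutation p = 0.0159, 0.0635 after adjustment over 4 array measures). A log2 level of 4.49, which the means of 95% of those 115 genes stay under, serves as background below, and between 55.2% and 57.1% of genes lay above it in CMP replicates, against 55.9% to 58.0% in HSC replicates. CMP replicates resembled each other more (r = 0.990 to 0.995 across genes) than HSC replicates did (0.947 to 0.982). CMP values were means of runs for 4 of the 5 replicates, which lowers their spread. Between the first and second runs of these 4 replicates, 909 genes were higher and 874 lower in the second run (limma, adjusted p below 0.05). No HSC replicate had a second run. Among HSC replicates, number 1 was the least similar to CMP (mean r = 0.912) and number 5 the most similar (0.953). The 3′ minus 5′ signal of control probe sets, which grows when amplified RNA is short, averaged 3.19 ± 0.20 in CMP and 3.63 ± 0.47 in HSC, with the highest value, 4.35, in HSC replicate 1. Y-linked transcripts were high in CMP replicates 1 to 3 and HSC replicates 1 and 2, and Xist was high in the others, so both sexes were present in both groups.

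Of 18193 genes, 2493 were higher in CMP than in HSC (13.7%) and 2357 were lower (13.0%), at an adjusted p below 0.05 in limma. Differences over 2-fold were found for 927 higher genes (5.10%) and 1187 lower genes (6.52%). Of all genes called, 51.4% were higher. That share is 65.3% when every replicate is centred on its median, with 3621 genes higher and 1924 lower. The groups did not overlap for 3836 genes (21.1%). Of the 115 genes not used in blood cells, 1 was called higher and 3 lower (3.48%). Of the gene lists below, 43 were chosen with earlier results of these data known and 1 after the values were seen. Their counts are therefore descriptions, to be read beside the 13.7% higher and 13.0% lower of all genes. In 16 of the lists limma called 0 members higher, and 2 of their 217 members were higher at an unadjusted p below 0.05. In 7 lists 0 members were called lower, and 0 of their 174 members were lower at an unadjusted p below 0.05. All differences below are CMP minus HSC on the log2 scale, values are listed from replicate 1 to replicate 5, and errors of differences are standard errors (SE). The plot of all genes shows the named extremes on each side, with immunoglobulin transcripts as the lowest points.

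**Figure D1:**
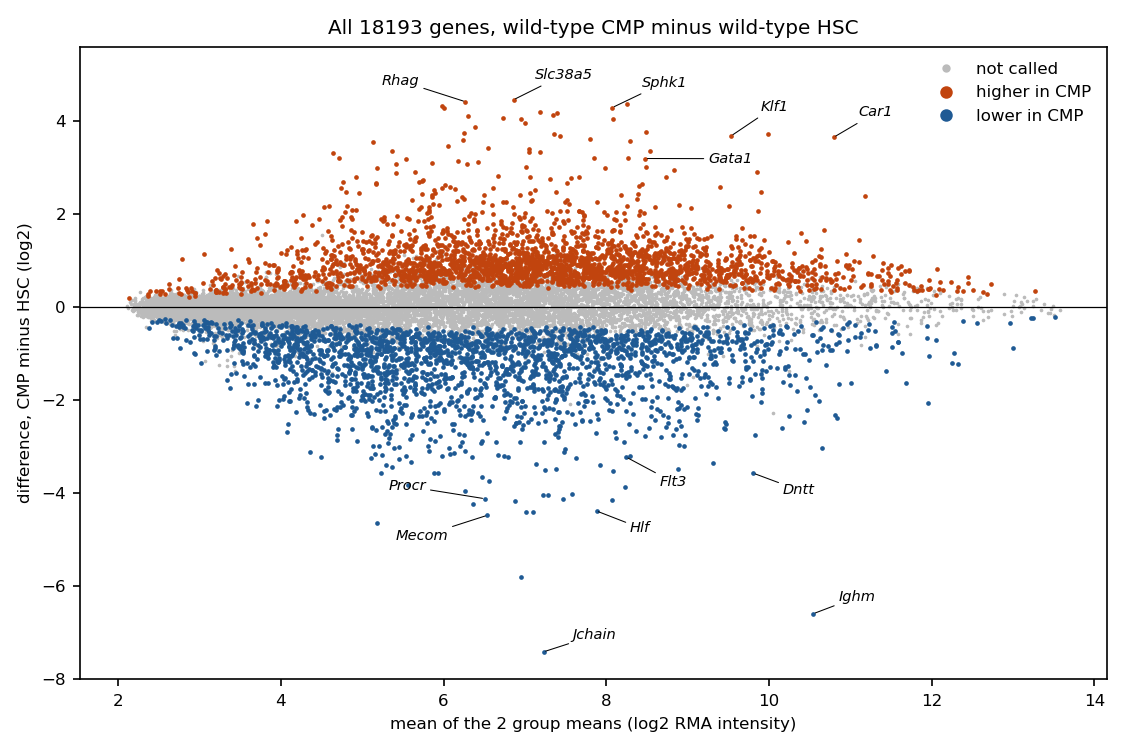
Difference between wild-type CMP and wild-type HSC (vertical axis, log2) against the mean of the group means (horizontal axis, log2 RMA intensity) for 18193 genes, with the 2493 genes higher in CMP in orange and the 2357 lower in blue. The erythroid genes Rhag, Klf1, Car1 and Gata1 lie more than 3 above 0, Slc38a5 is the highest of the labelled points, and Jchain and Ighm lie farthest below 0.

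The sorted populations were set against the genes that stem and progenitor gates use. Of 9 measured gate genes, 1 was higher and 5 were lower in CMP, against 13.7% and 13.0% of all genes. Kit, the stem cell factor receptor carried by both populations, had 8.84, 9.08, 9.34, 9.15 and 8.85 in CMP, against 8.48, 8.24, 8.55, 8.72 and 8.71 in HSC. This difference, 0.51 ± 0.15 (adjusted p = 0.0251), lost its call without CMP replicate 2, 3 or 4 or HSC replicate 2, with the second brightest probe set (adjusted p = 0.967) and in the fit of all 8 groups (adjusted p = 0.349). Cd34, a sialomucin found on CMP as they are usually sorted, was lower, with 7.05, 7.86, 6.57, 6.68 and 7.25 in CMP, against 9.27, 9.13, 10.18, 9.97 and 10.74 in HSC (difference -2.78 ± 0.31, adjusted p = 1.89e-05). Flt3, the receptor that marks multipotent cells with lymphoid potential, had 6.90, 7.17, 6.15, 6.16 and 6.78 in CMP, against 10.22, 10.70, 9.29, 9.48 and 9.59 in HSC (difference -3.22 ± 0.28, adjusted p = 2.01e-06). For Cd34 and Flt3 every CMP value lay below every HSC value.

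The Fc receptor genes Fcgr2b and Fcgr3, the receptors bound by the antibody that divides myeloid progenitors, averaged 6.25 ± 0.13 and 4.70 ± 0.28 in CMP and 6.94 ± 0.35 and 5.25 ± 0.72 in HSC. Only Fcgr2b passed the test of these, with a difference of -0.68 ± 0.18 (adjusted p = 0.0123, or 0.201 with the mean of its probe sets). Slamf1 and Cd48, which separate stem cells from progenitors, differed by 0.38 ± 0.29 (adjusted p = 0.407) and -0.14 ± 0.51 (adjusted p = 0.889). Slamf1 averaged 4.73 in CMP and 4.35 in HSC, below background in HSC. Tek, another marker listed for HSC, averaged 4.32 in CMP and 4.98 in HSC (difference -0.67 ± 0.27, adjusted p = 0.095 over all probe sets). The markers listed for HSC thus did not all follow the label. Cd48 ran from 5.35 in HSC replicate 1 to 9.04 in HSC replicate 5, a wider range than in CMP. Il7r, the interleukin 7 receptor of lymphoid progenitors, averaged below background in CMP and 5.05 ± 0.35 in HSC, and CMP lay at least 1.48-fold lower (adjusted p = 0.00273), a call not made with its second brightest probe set (adjusted p = 0.817). Ly6a was not analysed here.

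The markers listed here for CMP did not all follow the label. Gata1, Klf1, Epor and Car1 were far higher in CMP than in HSC, as given below. These genes were also listed as markers of megakaryocyte-erythroid progenitors, so their rise is not particular to CMP. Cebpa, the granulocyte-macrophage regulator, was lower in CMP, with 5.22, 5.57, 4.92, 4.77 and 4.99 in CMP, against 5.82, 5.68, 5.29, 6.12 and 6.71 in HSC (difference -0.83 ± 0.24, adjusted p = 0.02), and lost its call without CMP replicate 3 or 4, with the second runs alone (adjusted p = 0.061) and in the fit of all 8 groups (adjusted p = 0.0658). Mpo, myeloperoxidase, had 10.38, 11.46, 10.72, 10.57 and 11.18 in CMP, against 10.23, 11.75, 11.82, 10.86 and 12.89 in HSC, and the groups overlapped (difference -0.65 ± 0.39, adjusted p = 0.263). The samples labelled CMP thus held high erythroid transcripts and low Cd34, and neither Cebpa nor Mpo was higher than in HSC. Of the other granulocyte genes listed as CMP markers, Elane was higher in CMP by 1.67 ± 0.43 (adjusted p = 0.0094). Ctsg was not called (adjusted p = 0.41), and both genes are given below. Across the 4 wild-type populations, Cebpa averaged 5.09 ± 0.31 in CMP, 5.92 ± 0.53 in HSC, 8.87 ± 0.48 in granulocyte-macrophage progenitors (GMP, n = 5) and 6.04 ± 0.92 in common lymphoid progenitors (CLP, n = 8). Cd34 averaged 7.08 ± 0.51 in CMP, 9.86 ± 0.67 in HSC, 8.70 ± 0.48 in GMP and 9.19 ± 0.78 in CLP. Gata1 averaged 10.08 ± 0.07 in CMP, 6.88 ± 0.56 in HSC, 5.28 ± 0.20 in GMP and 6.50 ± 0.94 in CLP. GMP and CLP values are given as levels, without a test.

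**Figure D2:**
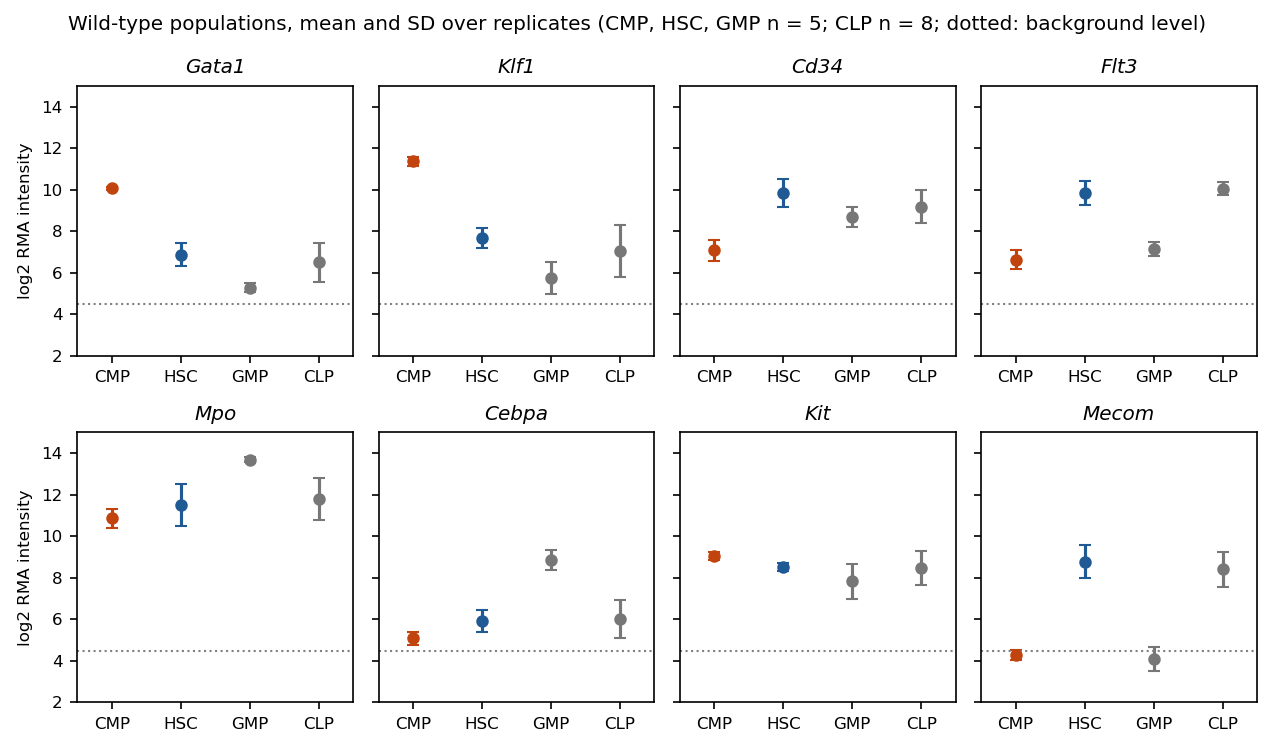
Mean and SD of 8 genes in wild-type CMP, HSC and GMP (n = 5 each) and CLP (n = 8), on the log2 RMA scale, with the background level of 4.49 dotted. Gata1 and Klf1 have their highest points in CMP, Mpo and Cebpa in GMP, and Cd34 and Flt3 have their lowest points in CMP.

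Erythroid regulators gave some of the clearest differences. Among 18 erythroid and megakaryocyte transcription factors, 7 were higher and 4 lower in CMP, and the median difference was 0.12, against 0.00 over all genes. Gata1, the zinc-finger factor on which red cell and platelet formation depends, had 10.14, 10.02, 10.12, 10.13 and 9.9970 in CMP, against 6.27, 6.77, 6.87, 6.69 and 7.79 in HSC (difference 3.20 ± 0.23, adjusted p = 3.76e-07). Klf1, the activator of adult globin and red cell membrane genes, had 11.52, 11.37, 11.19, 11.15 and 11.66 in CMP, against 6.94, 8.0018, 7.74, 8.19 and 7.59 in HSC (difference 3.69 ± 0.21, adjusted p = 7.2e-08). Neither gene overlapped between the groups, and the CMP replicates stood within a span of 0.14 for Gata1. Gfi1b, a repressor of erythroid and megakaryocyte cells, had 8.40, 8.46, 8.45, 8.58 and 8.91 in CMP, against 6.08, 6.80, 6.38, 6.06 and 7.08 in HSC (difference 2.08 ± 0.21, adjusted p = 8.35e-06). Zfpm1, the cofactor FOG1 that binds Gata1, had 9.19, 8.59, 8.51, 8.40 and 8.86 in CMP, against 6.97, 6.48, 6.54, 6.79 and 6.91 in HSC (difference 1.97 ± 0.18, adjusted p = 3.52e-06). Nfe2l2, Ldb1 and Tal1 were also higher, by 1.39, 0.99 and 0.74. The 4 lower members were Fli1, which fell by 0.86 (adjusted p = 0.00927, or 0.0604 with the 3′ minus 5′ control difference as a covariate), Foxo3 by 0.79, Lmo2 by 0.73 and Nfe2 by 0.63. Gata2 and Myb, used in both populations, differed by 0.13 and -0.08 and were not called.

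The 300-base promoters of 2 of these regulators, from the RefSeq promoter table on GRCm38.p6, are shown because they hold the GATA motif, searched on both strands and printed in capitals. The letters searched were AGATAA or else AGATAG, and with another first base TGATAA or else TGATAG. Each window runs from 250 bases before to 50 after the start of the gene, 5′ to 3′. Klf1 lies on the plus strand at chr8:84901732-84902031 and Gfi1b on the minus strand at chr2:28621933-28622232.
Klf1: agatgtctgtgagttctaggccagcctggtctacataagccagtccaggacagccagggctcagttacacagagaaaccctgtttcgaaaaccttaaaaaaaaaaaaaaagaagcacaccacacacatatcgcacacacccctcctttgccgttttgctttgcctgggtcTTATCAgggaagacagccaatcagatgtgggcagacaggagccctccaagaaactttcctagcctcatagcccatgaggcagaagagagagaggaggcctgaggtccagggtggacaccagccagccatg
Gfi1b: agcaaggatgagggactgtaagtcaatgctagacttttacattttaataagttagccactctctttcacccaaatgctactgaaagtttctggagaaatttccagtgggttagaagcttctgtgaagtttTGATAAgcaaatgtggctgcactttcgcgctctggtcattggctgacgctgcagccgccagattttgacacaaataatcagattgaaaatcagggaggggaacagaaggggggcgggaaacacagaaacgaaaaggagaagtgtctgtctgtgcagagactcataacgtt
The motif occurred in 4 of the 15 promoters of this list found in the table (26.7%), against 29.8% of all 32851 promoters, and the Gata1 window did not hold these letters. Here and below, list shares count a single promoter a gene. The share of all promoters counts every promoter of that length in the table, so the sets compared are unlike.

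**Figure D3:**
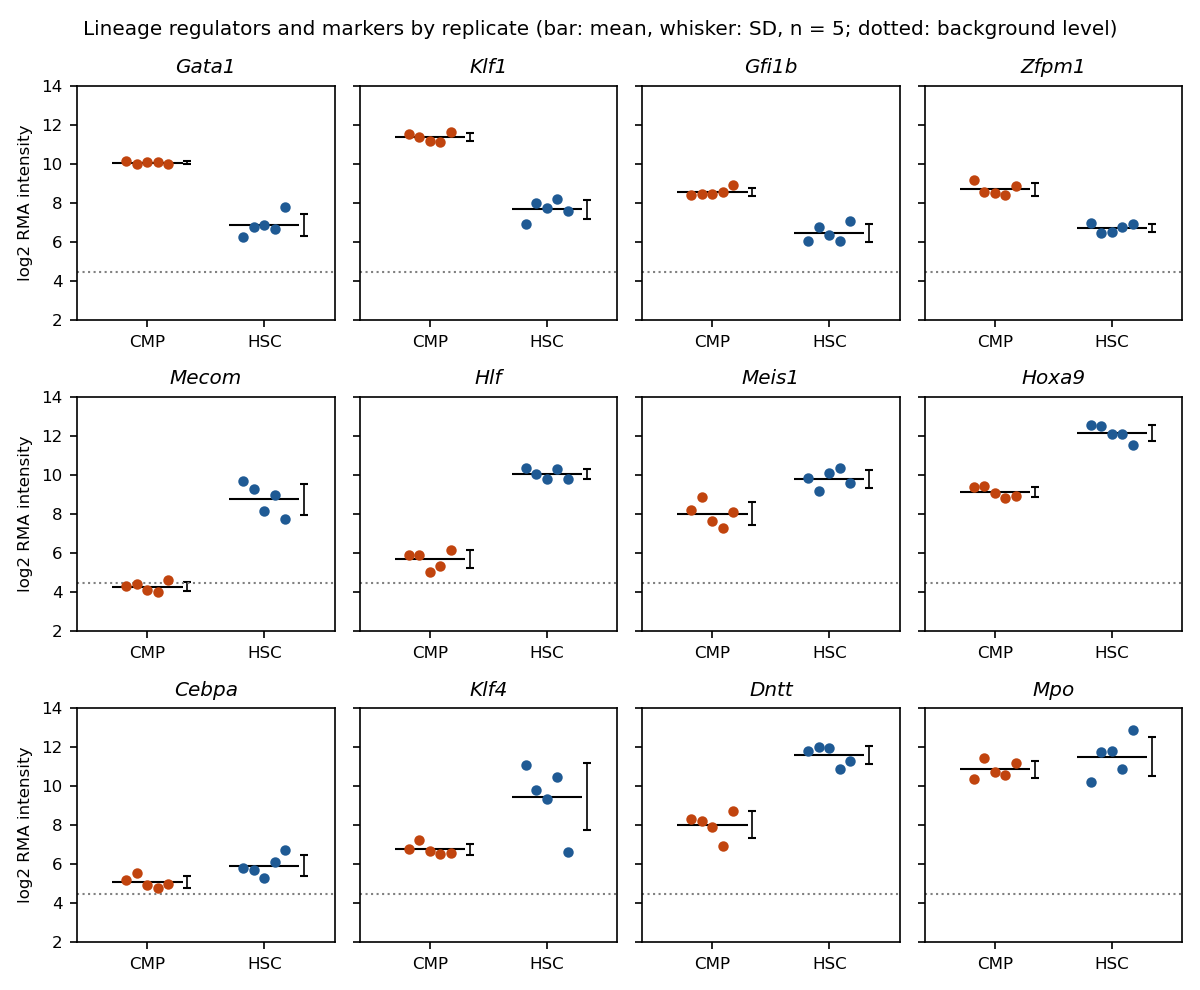
Log2 RMA intensity of 12 lineage genes in each replicate of wild-type CMP (left, orange) and wild-type HSC (right, blue), with the mean, the SD (n = 5) and the background level of 4.49 dotted. Gata1, Klf1, Gfi1b and Zfpm1 are higher in CMP without overlap, Mecom, Hlf, Meis1 and Hoxa9 are lower without overlap, and Mpo overlaps.

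Red cell surface genes were among the largest increases. Of 22 measured red cell globin and membrane genes, 16 were higher in CMP and 0 lower, with a median difference of 2.42. Rhag, the ammonium channel of the Rhesus complex, had 7.93, 8.38, 8.63, 8.78 and 8.68 in CMP, against 3.66, 3.93, 4.62, 4.23 and 3.84 in HSC. HSC averaged below background, and CMP was at least 15.6-fold higher (difference 4.42 ± 0.22, adjusted p = 2.35e-08). Aqp1, the water channel of the red cell, had 10.39, 10.26, 10.40, 10.49 and 10.69 in CMP, against 5.62, 5.67, 6.63, 6.09 and 6.31 in HSC (difference 4.38 ± 0.20, adjusted p = 1.81e-08). Kel, the endothelin-cleaving Kell protease, had 7.92, 8.46, 8.50, 8.36 and 8.57 in CMP, against 3.76, 4.54, 4.06, 4.24 and 4.66 in HSC, which is at least 14.2-fold higher in CMP (adjusted p = 2.35e-08). Ermap, a membrane protein of erythroid cells, had 11.66, 11.72, 12.03, 11.95 and 11.91 in CMP, against 7.67, 8.07, 8.93, 8.64 and 7.32 in HSC (difference 3.72 ± 0.25, adjusted p = 2.67e-07). None of these 4 genes overlapped between the groups. Car1, a carbonic anhydrase of red cell precursors, had 12.73, 12.52, 12.76, 12.55 and 12.57 in CMP, against 8.18, 9.52, 9.38, 9.59 and 8.16 in HSC (difference 3.66 ± 0.27, adjusted p = 4.44e-07). Car1 was above background in every HSC replicate too, and highest in replicates 2, 3 and 4.

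Some red cell and haem genes averaged below background in both groups, of which 5 are given here, chosen after their values were seen. The globin genes Hba-a1, Hbb-b2 and Hbb-bh1 averaged 3.07, 3.77 and 3.91 in CMP and 3.02, 3.93 and 3.62 in HSC. Slc4a1, the band 3 anion exchanger, averaged 3.38 in CMP and 4.11 in HSC, and Alas2, the erythroid enzyme that begins haem synthesis, 3.37 in CMP and 3.51 in HSC. None of these 5 genes was called.

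The promoters of Rhag (plus strand, chr17:40810899-40811198) and Kel (minus strand, chr6:41704276-41704575), from the same table and build, are shown because they belong to the largest differences of the list and hold the same GATA motif, in capitals.
Rhag: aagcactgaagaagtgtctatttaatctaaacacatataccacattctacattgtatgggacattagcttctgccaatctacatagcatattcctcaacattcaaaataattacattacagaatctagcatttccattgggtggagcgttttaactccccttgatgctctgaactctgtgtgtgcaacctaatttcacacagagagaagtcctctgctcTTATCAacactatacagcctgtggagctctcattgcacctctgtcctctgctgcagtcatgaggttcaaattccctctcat
Kel: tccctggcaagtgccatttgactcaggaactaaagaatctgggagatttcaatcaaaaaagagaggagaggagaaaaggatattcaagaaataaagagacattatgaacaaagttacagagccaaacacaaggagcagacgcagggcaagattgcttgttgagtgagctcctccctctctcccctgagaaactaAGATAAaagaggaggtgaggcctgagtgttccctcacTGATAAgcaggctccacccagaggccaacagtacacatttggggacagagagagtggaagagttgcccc
In this list 10 of 13 promoters found in the table held the motif (76.9%), against 29.8% of all promoters of that length, while the Aqp1 window did not hold these letters. The match is a description of the sequence.

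Haem synthesis and iron genes were also higher, 11 of 18 measured with 0 lower and a median difference of 1.16. Tfrc, the transferrin receptor that brings iron into cells, had 10.31, 10.54, 10.95, 10.83 and 10.35 in CMP, against 8.20, 8.35, 8.67, 8.38 and 8.47 in HSC (difference 2.18 ± 0.16, adjusted p = 4.37e-07). Alad, which joins aminolevulinate molecules early in the pathway, had 10.29, 9.95, 9.94, 10.04 and 10.31 in CMP, against 7.71, 7.93, 7.79, 7.80 and 8.66 in HSC (difference 2.13 ± 0.19, adjusted p = 2.04e-06). Cpox, a later enzyme of the pathway, differed by 1.79 ± 0.17 (adjusted p = 3.24e-06), with 7.19 ± 0.06 in CMP and 5.40 ± 0.30 in HSC. Blvrb, biliverdin reductase B, differed most, by 3.20 ± 0.25 (adjusted p = 6.94e-07), with 9.87 ± 0.22 in CMP and 6.67 ± 0.59 in HSC (SD, n = 5 each). Urod and Fech, at later steps, were higher by 1.44 and 1.55, and Glrx5, which serves iron-sulphur clusters, by 1.61.

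Other genes among the 15 largest increases included transporters and lipid enzymes. Slc38a5, an amino acid transporter that carries glutamine, had 8.87, 8.68, 9.19, 9.34 and 9.39 in CMP, against 4.20, 4.19, 5.37, 4.16 and 5.22 in HSC (difference 4.47 ± 0.27, adjusted p = 1.07e-07). Sphk1, the kinase that makes sphingosine 1-phosphate, had 9.64, 10.03, 10.34, 10.55 and 10.56 in CMP, against 5.06, 6.52, 6.38, 5.64 and 6.03 in HSC (difference 4.30 ± 0.27, adjusted p = 1.41e-07). Mfsd2b, the exporter of that lipid from red cells and platelets, had 8.91, 9.10, 8.9998, 8.85 and 9.06 in CMP, against 3.66, 5.43, 4.83, 4.31 and 6.81 in HSC (difference 3.97 ± 0.43, adjusted p = 1.31e-05). Both lipid genes stood higher in every CMP replicate than in any HSC replicate. Atp1b2, a beta subunit of the sodium pump, differed by 4.19 ± 0.17 (0.41 with its second brightest probe set, adjusted p = 0.0585), Col5a1, a fibrillar collagen chain, by 4.19 ± 0.21, and Tspan8, a tetraspanin, by 4.29 ± 0.35. Ces2g, a carboxylesterase, differed by 4.06 ± 0.15, Aldh1a7, an aldehyde dehydrogenase, by 4.06 ± 0.26, and Spire1, an actin nucleator, by 4.06 ± 0.27. Nxpe2, Zg16 and Tlcd4 completed the group, at 4.33 ± 0.25, 4.14 ± 0.46 and 3.88 ± 0.28, each with an adjusted p of at most 1.48e-05. For Nxpe2, Tspan8 and Tlcd4 HSC lay below background, and CMP was at least 12.4-fold, 11.6-fold and 12.6-fold higher.

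Platelet and megakaryocyte genes were less uniform. Of 21 measured, 5 were higher and 1 lower, a count that falls to 3 higher without CMP replicate 1 and grows to 9 without HSC replicate 5. Pf4, platelet factor 4, had 10.59, 9.97, 9.48, 8.95 and 9.82 in CMP, against 7.96, 8.66, 7.76, 7.37 and 9.04 in HSC (difference 1.60 ± 0.33, adjusted p = 0.00244). Gp5, a chain of the von Willebrand factor receptor, had 7.21, 6.97, 6.01, 6.78 and 7.06 in CMP, against 3.98, 4.11, 4.89, 4.20 and 6.06 in HSC (difference 2.16 ± 0.36, adjusted p = 0.00046). HSC replicate 5 was the highest of its group for both genes, and CMP replicate 1 the highest of its group. Gp1bb, a partner chain, differed by 1.70 ± 0.52 (adjusted p = 0.0253), a call lost without CMP replicate 1 or 5 or without HSC replicate 1, 3 or 4, and its second brightest probe set gave -0.033. Vwf, the adhesive protein itself, which stem cells biased to platelets also carry, averaged 8.04 ± 0.45 in CMP and 7.02 ± 0.48 in HSC (difference 1.01 ± 0.26, adjusted p = 0.00947, or 0.0671 with the 3′ minus 5′ control difference as a covariate). Selp, P-selectin, went the other way at -1.10 ± 0.24 (adjusted p = 0.00334), and its second brightest probe set gave 0.81.

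Regulators of granulocytes and monocytes were lower in CMP or not called. Of 15 such factors, 8 were lower and 0 higher, with a median difference of -0.87, and 5 were lower without CMP replicate 3 and 4 without CMP replicate 4. Gfi1, the repressor needed for neutrophils and for stem cell quiescence, had 3.42, 4.56, 4.48, 3.06 and 4.14 in CMP, against 7.36, 6.27, 6.34, 6.41 and 7.30 in HSC. CMP averaged below background, at least 4.7-fold lower (adjusted p = 1.92e-05). Klf4, a monocyte factor, had 6.80, 7.22, 6.69, 6.53 and 6.60 in CMP, against 11.06, 9.80, 9.36, 10.45 and 6.62 in HSC (difference -2.69 ± 0.60, adjusted p = 0.00429), and HSC replicate 5 alone fell within the CMP range. Cebpb, a factor of emergency granulopoiesis, differed by -1.65 ± 0.37 (adjusted p = 0.00438), with HSC running from 6.01 to 8.60, and its second brightest probe set gave no call (adjusted p = 0.173). Spi1, the PU.1 factor of myeloid cells, averaged 5.90 in CMP and 7.10 in HSC, a called difference of -1.19.

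Of 15 primary granule genes, 1 was higher and 8 were lower in CMP, with 4 lower without CMP replicate 3 or 4 and 5 lower without CMP replicate 5 or without HSC replicate 3 or 5. Elane, neutrophil elastase, was the higher one, with 6.60, 7.60, 7.01, 5.17 and 7.76 in CMP, against 5.12, 5.45, 4.68, 4.53 and 6.0050 in HSC (difference 1.67 ± 0.43, adjusted p = 0.0094). CMP replicate 4 lay within the HSC range, and the call was lost with the 3′ minus 5′ covariate (adjusted p = 0.0605). Serpinb1a, an inhibitor of neutrophil proteases, had 7.96, 8.45, 7.78, 7.32 and 7.76 in CMP, against 9.36, 10.03, 10.20, 9.68 and 10.24 in HSC (difference -2.05 ± 0.22, adjusted p = 1.33e-05). Lyz2, lysozyme, had 6.40, 7.02, 5.69, 5.68 and 7.17 in CMP, against 7.71, 8.45, 8.06, 8.34 and 8.52 in HSC (difference -1.82 ± 0.30, adjusted p = 0.000405). Prtn3, proteinase 3, differed by -1.15 ± 0.30 (adjusted p = 0.00975), while Ctsg, cathepsin G, differed by -0.64 ± 0.50 and was not called (adjusted p = 0.41). In GMP the same genes averaged 11.05 ± 0.99 for Elane and 12.73 ± 0.27 for Prtn3, given as levels without a test.

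Late neutrophil genes were high in single replicates of both groups. The mean of 14 late granule and calprotectin genes was 4.74, 6.41, 5.22, 4.53 and 6.47 in CMP, against 4.97, 5.21, 5.30, 7.08 and 5.49 in HSC. CMP replicates 2 and 5 and HSC replicate 4 stood highest. S100a9, a calprotectin chain, had 6.04, 8.74, 6.95, 5.57 and 9.15 in CMP, against 6.40, 6.32, 6.38, 9.61 and 6.18 in HSC, and Ngp, neutrophilic granule protein, had 5.88, 9.33, 6.34, 6.25 and 9.19 in CMP, against 7.27, 7.47, 7.85, 10.53 and 7.51 in HSC. Of this list 1 gene was higher (7.14%) and 2 lower (14.3%), against 13.7% and 13.0% of all genes. The higher gene was Fcnb (ficolin B), whose call was lost without CMP replicate 5. The 2 lower genes were Mmp8, a collagenase below background in both groups, and Cybb, an NADPH oxidase chain whose second brightest probe set gave 0.11.

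Monocyte and macrophage genes were called lower for 3 of 17 (17.6%), near the 13.0% of all genes. Ctss, cathepsin S, had 6.27, 7.26, 6.64, 6.32 and 6.94 in CMP, against 9.22, 9.84, 10.35, 10.14 and 9.89 in HSC (difference -3.20 ± 0.24, adjusted p = 5.61e-07), and Tyrobp, an adaptor of immune receptors, differed by -1.31 ± 0.32 (adjusted p = 0.00771). The macrophage markers Adgre1, C1qa and C1qb averaged below background in both groups, Cd68 averaged 4.49 ± 0.38 in CMP and 5.18 ± 0.82 in HSC, and Csf1r, the macrophage growth factor receptor, had 7.75, 8.27, 7.55, 7.53 and 7.82 in CMP, against 7.74, 8.49, 8.46, 7.88 and 10.35 in HSC. HSC replicate 5 held the highest Csf1r, and the difference was not called (adjusted p = 0.162).

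Of 11 measured mast cell and basophil genes, 3 were lower in CMP and 0 higher, and 5 were lower without HSC replicate 4. Their mean was 4.46, 4.52, 4.30, 4.29 and 4.44 in CMP, against 4.92, 6.10, 5.07, 4.67 and 5.58 in HSC. Mcpt8, a basophil protease, had 4.85, 4.56, 4.18, 4.29 and 5.56 in CMP, against 7.68, 11.01, 7.99, 6.40 and 9.02 in HSC (difference -3.73 ± 0.63, adjusted p = 0.00054). Ms4a2, the beta chain of the IgE receptor, had 6.95, 7.07, 6.47, 6.10 and 6.27 in CMP, against 7.86, 9.83, 8.17, 7.16 and 8.39 in HSC (difference -1.71 ± 0.39, adjusted p = 0.00439). HSC replicate 2 was the highest for both, and neither gene overlapped between the groups. Cpa3, carboxypeptidase A3 of mast cells and their progenitors, averaged 7.14 ± 0.64 in CMP and 7.59 ± 1.14 in HSC and was not called (adjusted p = 0.543).

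Most stem cell transcription factors were lower in CMP. Of 24 measured, 19 were lower and 0 higher in CMP, with a median difference of -1.36. Mecom (Evi1), a zinc-finger factor of long-term stem cells, had 4.30, 4.41, 4.11, 4.03 and 4.63 in CMP, against 9.69, 9.27, 8.18, 8.98 and 7.76 in HSC. CMP averaged below background, at least 19.1-fold lower (difference -4.48 ± 0.31, adjusted p = 3.04e-07), and its second brightest probe set gave no call (adjusted p = 0.817). Hlf, a leucine zipper factor confined to primitive cells, had 5.93, 5.93, 5.06, 5.37 and 6.15 in CMP, against 10.37, 10.06, 9.82, 10.31 and 9.80 in HSC (difference -4.38 ± 0.22, adjusted p = 2.89e-08). Prdm16, a Mecom relative, had 4.03, 4.18, 3.77, 3.83 and 3.87 in CMP, against 8.03, 7.08, 6.72, 7.42 and 6.48 in HSC, at least 6.31-fold lower in CMP (adjusted p = 6.92e-07). No CMP replicate reached the HSC range for these genes. Meis1, a Hox cofactor, was lower but stayed well above background, with 8.22, 8.86, 7.67, 7.29 and 8.13 in CMP, against 9.85, 9.18, 10.10, 10.34 and 9.59 in HSC (difference -1.78 ± 0.28, adjusted p = 0.000304). Mycn, which partners Myc in stem cells, differed by -1.75 ± 0.28 (adjusted p = 0.000339, or 0.32 with its second brightest probe set). Erg and Zfp521 were lower by differences of -2.67 and -2.50, while Gata2 and Bmi1 were not called, at 0.13 and 0.39.

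Hox genes were lower or not called. Hoxa9, which sustains stem and progenitor cells and is a main target of Mll, had 9.38, 9.42, 9.07, 8.84 and 8.95 in CMP, against 12.57, 12.53, 12.13, 12.08 and 11.52 in HSC (difference -3.03 ± 0.19, adjusted p = 1.47e-07). Hoxa5 had 6.30, 5.91, 6.07, 6.26 and 5.88 in CMP, against 7.64, 7.75, 7.45, 7.57 and 6.33 in HSC (difference -1.27 ± 0.25, adjusted p = 0.00158), and Hoxa7 averaged 5.49 ± 0.13 in CMP and 6.42 ± 0.23 in HSC (difference -0.93 ± 0.16, adjusted p = 0.000508). HSC replicate 5 stood apart with the lowest Hoxa5. Of 9 measured HoxA genes 5 were lower and 0 higher, and of 9 HoxB genes 4 were lower and 0 higher. Only 3 of the HoxA genes and 2 of the HoxB genes averaged above background in either group. They are Hoxa5, Hoxa7, Hoxa9, Hoxb3 and Hoxb4, and the other called Hox genes lay below background in both groups. Hoxb3 averaged 4.28 ± 0.14 in CMP and 5.72 ± 0.86 in HSC, at least 2.35-fold lower in CMP (adjusted p = 0.00376, or 0.0846 with its second brightest probe set). Hoxb4 differed by -0.68 ± 0.22 (adjusted p = 0.0332), a call lost without CMP replicate 2, 3, 4 or 5 or HSC replicate 4. With the 3′ minus 5′ covariate Hoxb4 differed by -0.30 (adjusted p = 0.338), and its second brightest probe set gave -0.18 (adjusted p = 0.365).

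Stem cell surface genes were lower for 13 of 21 measured and higher for 2, with a median difference of -1.19. Procr, the protein C receptor (EPCR) that marks repopulating cells, had 4.65, 4.71, 4.48, 4.13 and 4.25 in CMP, against 9.63, 9.03, 7.33, 8.51 and 8.30 in HSC, at least 16-fold lower in CMP (adjusted p = 9.74e-07). Alcam, an adhesion molecule, had 4.51, 4.30, 3.92, 4.49 and 4.24 in CMP, against 9.08, 7.68, 8.43, 8.27 and 7.74 in HSC, at least 13.4-fold lower (adjusted p = 1.38e-07). Fgd5, a guanine exchange factor used to mark stem cells, had 3.41, 4.0011, 3.50, 3.38 and 3.64 in CMP, against 7.82, 6.87, 6.48, 7.28 and 6.50 in HSC, at least 5.66-fold lower (adjusted p = 3.83e-07). These 3 genes were under background on average in CMP and above it in all 5 HSC replicates. Gpr171, an orphan receptor, differed by -2.72 ± 0.24 (adjusted p = 2e-06). Vldlr, a lipoprotein receptor, and Il18, a cytokine, were among the 15 largest decreases, at -4.40 ± 0.25 and -4.04 ± 0.27. So were Gcnt2, a glycosyltransferase, at -4.15 ± 0.42, and Kbtbd11 at -4.03 ± 0.27, whose second brightest probe set gave no call (adjusted p = 0.645).

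Of 20 measured genes of lymphoid priming, 9 were lower and 0 higher. Dntt, the terminal transferase that adds bases to antigen receptor joints, had 8.33, 8.23, 7.92, 6.91 and 8.71 in CMP, against 11.81, 12.02, 11.96, 10.90 and 11.29 in HSC (difference -3.57 ± 0.30, adjusted p = 1.56e-06), and averaged 12.30 ± 0.25 in CLP. Ltb, lymphotoxin beta, had 4.50, 4.35, 3.85, 3.90 and 3.86 in CMP, against 8.50, 8.13, 6.96, 7.53 and 7.19 in HSC, at least 9-fold lower in CMP (adjusted p = 6.66e-07). Notch1, the receptor that directs T cell fate, had 6.99, 7.15, 6.47, 6.47 and 6.76 in CMP, against 9.87, 9.57, 10.08, 9.27 and 9.57 in HSC (difference -2.90 ± 0.19, adjusted p = 2.24e-07). All 3 genes were separated between the groups. Ebf1, Pax5 and Vpreb1, genes of committed B cell precursors, averaged below background in both groups and were not called. Rag1, a recombinase chain, was below background in both, at 2.87 ± 0.18 in CMP and 3.28 ± 0.13 in HSC.

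The immunoglobulin transcripts Jchain and Ighm gave the largest decreases. Jchain, which joins secreted antibody units, had 3.07, 6.04, 2.91, 2.9999 and 2.59 in CMP, against 10.77, 11.28, 12.36, 12.35 and 7.91 in HSC, at least 70.3-fold lower in CMP (difference -7.41 ± 0.80, adjusted p = 1.27e-05). Ighm, the mu heavy chain, had 7.23, 7.87, 6.85, 6.48 and 7.80 in CMP, against 14.0036, 14.21, 14.24, 14.25 and 12.50 in HSC (difference -6.59 ± 0.34, adjusted p = 3.58e-08). Another Ighm probe set gave -6.39 ± 0.45, and a further probe set above background gave -0.21 ± 0.18 (adjusted p = 0.46 over all probe sets). The rest of its 11 probe sets lay below background in both groups. The smallest Ighm decrease in any alternative was -1.19. Igkv8-30, a kappa variable segment, had 4.11, 5.46, 3.78, 3.75 and 3.15 in CMP, against 10.12, 10.50, 10.76, 10.65 and 7.21 in HSC, at least 35.8-fold lower (adjusted p = 9.32e-06). HSC replicate 5 was the lowest of its group for all 3, and CMP replicate 2 the highest of its own. Igha, the alpha heavy chain, had 4.66, 9.14, 4.49, 4.60 and 4.14 in CMP, against 10.92, 4.74, 11.52, 11.84 and 8.67 in HSC, so that CMP replicate 2 lay above HSC replicates 2 and 5 (difference -4.13 ± 1.24, adjusted p = 0.0235). Its call was lost without CMP replicate 1, 3, 4 or 5, without HSC replicate 1, 3 or 4, and with the 3′ minus 5′ covariate (adjusted p = 0.102). Probes for variable and constant segments can read related genes, so the segment named is uncertain. In CLP, Jchain, Ighm, Igkv8-30 and Igha averaged 12.39, 14.09, 10.79 and 12.75, so high levels were not particular to HSC. In GMP they averaged 3.85, 10.43, 5.03 and 5.39, and these levels are given without a test.

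A list of 12 genes of plasma cells, the antibody-secreting cells, was put together after the values were seen and holds Jchain, Ighm and Igha. Its count, like those of the other lists, is a description. It had 10 lower in CMP and 8 above background in one group or the other. Sdc1, syndecan 1, had 3.81, 4.06, 3.88, 3.42 and 4.23 in CMP, against 7.81, 6.72, 6.84, 6.74 and 6.43 in HSC, at least 5.34-fold lower in CMP (adjusted p = 8.57e-07). Mzb1, a chaperone of antibody assembly, was at least 2.23-fold lower (adjusted p = 0.00161), with HSC at 5.59, 5.32, 6.63, 5.90 and 4.90. The plasma cell regulators Prdm1 and Irf4 averaged below background in both groups. The mean level of the list was 4.52, 5.19, 4.39, 4.42 and 4.51 in CMP, against 7.13, 6.57, 7.59, 7.49 and 6.09 in HSC. The mature B cell markers Cd79a and Ms4a1 lay below background in both groups, and the T and NK markers Cd3d, Cd3g and Ncr1 too. The T cell marker Cd3e averaged 4.62 ± 0.21 in CMP, above background, and 4.42 ± 0.23 in HSC, and was not called (adjusted p = 0.373). Cd79b, the other chain of the B cell receptor complex, averaged 4.60 ± 0.31 in CMP and 6.38 ± 0.31 in HSC (adjusted p = 1.3e-05). Of 10 mature B cell genes 4 were lower, namely Ighm, Jchain, Cd79b and Cd37, so this list shares Ighm and Jchain with the plasma cell list. Its median difference was -0.29, and 4 members were above background in one group or the other. The list mean, which includes Ighm and Jchain, was 4.27, 4.53, 4.03, 4.05 and 4.13 in CMP, against 5.89, 6.04, 6.21, 6.25 and 5.46 in HSC. The part of such cells in other differences was not tested.

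**Figure D4:**
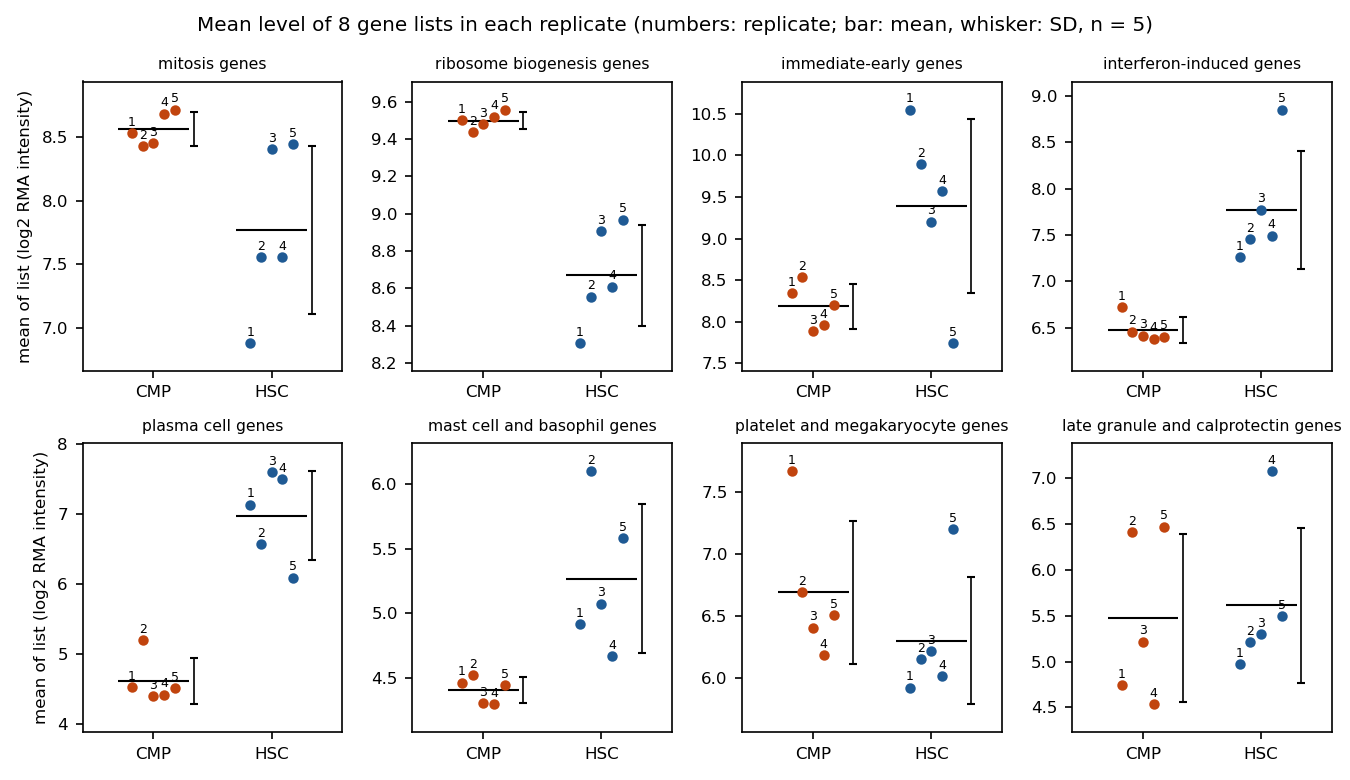
Mean log2 RMA intensity of 8 gene lists in each replicate of wild-type CMP (left, orange) and wild-type HSC (right, blue), numbered by replicate, with mean and SD (n = 5). Mitosis genes are lowest in HSC replicate 1, plasma cell genes are lower in all CMP replicates than in any HSC replicate, and late granule genes overlap. The vertical axes differ between panels.

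Gimap genes, GTPases of lymphocyte survival, were lower for 6 of 8, with a median difference of -2.21. Gimap8 had 4.99, 5.42, 5.07, 4.34 and 4.68 in CMP, against 9.70, 9.77, 9.26, 9.57 and 8.22 in HSC (difference -4.40 ± 0.29, adjusted p = 1.86e-07). Gimap6 had 3.97, 4.63, 3.96, 3.65 and 4.99 in CMP, against 10.04, 9.26, 8.01, 8.73 and 6.35 in HSC, at least 14.5-fold lower in CMP (adjusted p = 4.61e-05). HSC replicate 5 was again the lowest HSC replicate for both genes. MHC class II genes, which present antigen, were lower for 7 of 8. H2-Aa, a class II chain, had 5.50, 6.96, 6.13, 5.49 and 6.74 in CMP, against 8.50, 9.08, 7.96, 8.81 and 8.54 in HSC (difference -2.41 ± 0.30, adjusted p = 4.71e-05), and H2-Ob, an editor of peptide loading, differed by -2.18 ± 0.35 (adjusted p = 0.000329). Ciita, the class II activator, differed by -0.43 and was not called.

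Of 23 measured cytokine and growth factor receptors, 3 were higher and 13 lower, with a median difference of -0.85. Epor, the erythropoietin receptor, was the largest of these increases, with 7.85, 7.87, 7.76, 7.81 and 8.19 in CMP, against 4.84, 5.26, 5.67, 5.28 and 5.60 in HSC (difference 2.57 ± 0.18, adjusted p = 3.61e-07). Il1r1, an interleukin 1 receptor, had 6.05, 5.59, 5.56, 5.78 and 5.88 in CMP, against 8.12, 8.94, 8.0048, 7.85 and 7.71 in HSC (difference -2.35 ± 0.22, adjusted p = 3.75e-06), and its second brightest probe set gave no call (adjusted p = 0.507). Il18r1, the receptor of interleukin 18, had 3.90, 4.07, 4.89, 3.34 and 3.03 in CMP, against 5.98, 6.92, 6.51, 5.36 and 5.29 in HSC, at least 2.72-fold lower in CMP (adjusted p = 0.000489). Each of these receptors was separated between the groups. Csf3r, the receptor for granulocyte growth, differed by -1.81, Csf2rb, the common beta chain, by -2.12 and Il6st, the shared gp130 chain, by -1.94, all called. Ifngr1, a receptor of interferon gamma, was higher by 1.14.

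In the transforming growth factor, Notch and Wnt pathways 2 of 25 genes were higher and 11 lower. Smad4, the shared effector of transforming growth factor signals, had 8.30, 8.36, 8.47, 8.11 and 7.80 in CMP, against 11.39, 10.69, 10.69, 10.99 and 9.87 in HSC (difference -2.52 ± 0.24, adjusted p = 3.76e-06). Hes1, a Notch target, had 4.87, 4.64, 4.63, 4.53 and 5.02 in CMP, against 8.82, 6.98, 5.70, 6.09 and 4.63 in HSC (difference -1.71 ± 0.55, adjusted p = 0.0346), and HSC replicate 5 lay within the CMP range. The Hes1 call was lost without any single CMP replicate and without HSC replicate 2 or 4, and with the 3′ minus 5′ control difference as a covariate the difference was -0.52 (adjusted p = 0.381). HSC replicate 1 had the highest Hes1 and the highest 3′ minus 5′ value. Tgfbr3, betaglycan, was higher, with 9.64, 9.47, 9.61, 9.49 and 8.90 in CMP, against 8.29, 7.12, 7.50, 7.67 and 8.53 in HSC (difference 1.60 ± 0.25, adjusted p = 0.000328), though its second brightest probe set gave -0.0084. Tgfb1, the ligand, was higher by 1.14, and the receptors Tgfbr1 and Tgfbr2 were lower, at -1.10 and -1.25.

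Of 31 mitosis genes, 15 were higher and 0 lower, with a median difference of 0.78. Cenpa, the histone variant of centromeres, had 9.02, 9.07, 9.29, 9.45 and 9.34 in CMP, against 5.99, 7.48, 7.59, 7.23 and 7.77 in HSC (difference 2.02 ± 0.28, adjusted p = 0.000109). Ube2c, which marks mitotic cyclins for destruction, had 8.70, 8.37, 8.23, 8.55 and 9.23 in CMP, against 5.73, 6.72, 7.77, 7.27 and 7.97 in HSC (difference 1.52 ± 0.36, adjusted p = 0.00562). Anln, the cytokinesis protein anillin, had 8.53, 8.73, 8.73, 8.68 and 8.65 in CMP, against 5.55, 7.20, 8.30, 6.82 and 7.85 in HSC (difference 1.52 ± 0.38, adjusted p = 0.0088). In each gene HSC replicate 1 was the lowest, and HSC replicates 3 and 5 came nearest to CMP. The mean over the list was 8.53, 8.43, 8.46, 8.69 and 8.72 in CMP, against 6.88, 7.56, 8.41, 7.56 and 8.45 in HSC. The count was 9 without CMP replicate 3, 4 or 5 or without HSC replicate 4, and 18 without HSC replicates 1 and 5. With the 3′ minus 5′ control difference as a covariate 3 were higher, and the second brightest probe set of Cenpa gave no call (adjusted p = 0.284), nor did that of Anln (adjusted p = 0.244).

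Promoters of these 3 mitosis genes, from the RefSeq table on GRCm38.p6, are shown for the CCAAT box and for the cell cycle homology region, searched as TTTGAA, on both strands and in capitals. Cenpa lies on the plus strand at chr5:30666636-30666935, Ube2c on the plus strand at chr2:164769679-164769978 and Anln on the minus strand at chr9:22389157-22389456. In Ube2c a CCAAT and its reverse overlap.
Cenpa: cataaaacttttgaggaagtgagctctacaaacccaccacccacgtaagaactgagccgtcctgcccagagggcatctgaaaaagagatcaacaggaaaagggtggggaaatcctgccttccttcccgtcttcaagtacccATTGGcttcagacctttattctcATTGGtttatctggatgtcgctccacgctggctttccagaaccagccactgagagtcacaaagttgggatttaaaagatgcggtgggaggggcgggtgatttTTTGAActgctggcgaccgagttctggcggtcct
Ube2c: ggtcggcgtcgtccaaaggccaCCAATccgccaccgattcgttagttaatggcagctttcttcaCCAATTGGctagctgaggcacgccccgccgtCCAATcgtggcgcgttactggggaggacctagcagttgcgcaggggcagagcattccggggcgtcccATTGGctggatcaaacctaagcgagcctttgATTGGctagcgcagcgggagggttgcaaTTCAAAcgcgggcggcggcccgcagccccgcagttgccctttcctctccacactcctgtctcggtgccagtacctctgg
Anln: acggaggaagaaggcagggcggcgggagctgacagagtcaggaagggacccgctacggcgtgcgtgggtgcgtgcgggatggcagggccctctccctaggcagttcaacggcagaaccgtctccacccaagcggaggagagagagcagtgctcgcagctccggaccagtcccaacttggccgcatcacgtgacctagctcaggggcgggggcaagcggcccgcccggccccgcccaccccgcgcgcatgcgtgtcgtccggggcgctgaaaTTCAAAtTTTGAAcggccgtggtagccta
Of 26 mitosis promoters found in the table, 18 held CCAAT (69.2%) and 19 held TTTGAA (73.1%), against 37.4% and 17.9% of all 32851 promoters.

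DNA replication and nucleotide synthesis genes were higher for 14 of 37 with 0 lower, and for 5 with the 3′ minus 5′ covariate. Dut, which removes dUTP, had 10.78, 10.59, 10.17, 10.43 and 10.62 in CMP, against 8.04, 8.69, 9.50, 8.24 and 9.61 in HSC (difference 1.70 ± 0.28, adjusted p = 0.000407). Cad, the enzyme that begins pyrimidine synthesis, had 9.38, 9.27, 9.39, 9.29 and 9.57 in CMP, against 7.56, 7.27, 8.25, 7.65 and 8.41 in HSC (difference 1.55 ± 0.21, adjusted p = 8.8e-05). Neither gene overlapped between the groups. Cdc6, which loads the replicative helicase, differed by 1.41 ± 0.34 (adjusted p = 0.007, or 0.0674 with the 3′ minus 5′ covariate). Of the helicase subunits Mcm2 to Mcm7, Mcm2 was called, at 0.57, and the others ranged from 0.25 to 0.69. The list's count was 8 or 9 without CMP replicate 1, 2, 4 or 5 or without HSC replicate 2 or 4.

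Regulators of cell cycle entry changed in both directions. Ccne1, cyclin E1 of the start of S phase, had 9.36, 9.54, 9.30, 9.19 and 9.30 in CMP, against 6.65, 7.60, 7.64, 6.49 and 7.47 in HSC (difference 2.17 ± 0.23, adjusted p = 1.12e-05). Cdkn1c, the inhibitor p57 that holds stem cells at rest, had 4.08, 4.03, 4.30, 4.18 and 3.99 in CMP, against 5.79, 6.84, 5.23, 6.10 and 5.60 in HSC, at least 2.68-fold lower in CMP (adjusted p = 8.12e-05). Ccng2, a cyclin of resting cells, differed by -1.95 ± 0.24 (adjusted p = 4.13e-05), and its second brightest probe set gave no call (adjusted p = 0.9). Rb1, the retinoblastoma protein that restrains S phase entry, was higher, at 1.32 ± 0.22 (adjusted p = 0.000466). Of the 21 genes listed with them 5 were higher and 4 lower. DNA repair genes were higher for 9 of 27 and lower for 1. Fancd2, of the Fanconi pathway, differed by 1.23 ± 0.19, Xrcc5, the Ku80 end-joining protein, by 1.06 ± 0.14, and Trp53bp1, the lower member, by -1.27 ± 0.15, with adjusted p-values of 0.000253, 9.24e-05 and 3.23e-05.

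Ribosome biogenesis genes were higher almost throughout. Of 26, 23 were higher in CMP (88.5%) and 0 lower, with a median difference of 0.70, and 15 were higher without CMP replicate 1 or 4 and 14 with the 3′ minus 5′ covariate. Wdr12, of the large subunit assembly complex, had 9.30, 9.21, 9.43, 9.39 and 9.16 in CMP, against 7.03, 7.10, 8.25, 7.68 and 8.34 in HSC (difference 1.62 ± 0.25, adjusted p = 0.000247). Nop58, a core protein of ribosomal RNA methylation, had 8.94, 9.05, 9.15, 9.18 and 9.75 in CMP, against 6.55, 7.60, 8.57, 7.94 and 7.78 in HSC (difference 1.52 ± 0.30, adjusted p = 0.00161). Polr1b, a subunit of RNA polymerase I, had 7.96, 7.79, 7.99, 8.37 and 8.05 in CMP, against 6.22, 5.56, 6.92, 6.88 and 7.13 in HSC (difference 1.49 ± 0.27, adjusted p = 0.000815). All 3 were separated between the groups, with HSC replicate 1 or 2 lowest, and the second brightest probe set of Wdr12 gave no call (adjusted p = 0.402). Myc, which drives this programme, differed by 0.71 ± 0.20 (adjusted p = 0.0176), with 9.53, 9.21, 9.25, 8.95 and 8.83 in CMP, against 8.54, 8.34, 7.96, 8.35 and 9.03 in HSC. HSC replicate 5 lay within the CMP range, and the call was lost without CMP replicate 1. Mxd4, a Myc antagonist, was lower at -1.21 ± 0.16 (adjusted p = 8.35e-05, or 0.0981 with its second brightest probe set).

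Genes of mitochondrial respiration were higher. Of 36 oxidative phosphorylation subunits, 27 were higher and 0 lower, with a median difference of 0.75, and 14 were higher with the 3′ minus 5′ covariate. Atp5g1, a ring subunit of ATP synthase, had 9.31, 9.06, 8.96, 8.94 and 9.54 in CMP, against 6.45, 7.36, 7.71, 7.04 and 7.90 in HSC (difference 1.87 ± 0.25, adjusted p = 7.66e-05), and its second brightest probe set gave no call (adjusted p = 0.775). Ndufa5, of complex I, had 10.21, 10.16, 10.24, 10.49 and 10.23 in CMP, against 8.72, 8.80, 8.99, 8.82 and 9.50 in HSC (difference 1.30 ± 0.16, adjusted p = 3.79e-05). Both genes were separated between the groups. Glycolysis and citrate cycle genes were higher for 11 of 28 and lower for 4, and the 2 chains of lactate dehydrogenase went in opposite directions. Ldha, the muscle-type chain of lactate dehydrogenase, had 10.49, 10.36, 10.46, 10.26 and 10.44 in CMP, against 8.70, 9.03, 9.55, 9.04 and 10.16 in HSC (difference 1.10 ± 0.22, adjusted p = 0.00209). Ldhb, the heart-type chain, had 4.96, 5.62, 5.52, 5.90 and 6.20 in CMP, against 9.87, 9.44, 8.41, 9.38 and 8.53 in HSC (difference -3.49 ± 0.30, adjusted p = 1.53e-06). Hk1, a hexokinase, was higher at 1.47 ± 0.18, and Pkm, pyruvate kinase, and Aldoc, an aldolase, were lower at -1.69 ± 0.24 and -2.48 ± 0.22. For Aldoc the second brightest probe set gave no call (adjusted p = 0.473).

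Peroxide defence genes were higher for 13 of 21 and lower for 1. Gstm5, a glutathione transferase, had 9.79, 9.64, 9.67, 9.83 and 9.95 in CMP, against 6.59, 7.39, 7.11, 7.12 and 7.36 in HSC (difference 2.66 ± 0.17, adjusted p = 1.47e-07), while its relative Gstm1 had 6.09, 6.53, 6.14, 5.68 and 6.69 in CMP, against 8.10, 7.93, 7.44, 8.04 and 8.20 in HSC (difference -1.72 ± 0.21, adjusted p = 4.6e-05). These related genes went in opposite directions, both without overlap. Nqo1, a quinone reductase, was at least 2.11-fold higher in CMP (adjusted p = 6.18e-05), and Prdx3, a mitochondrial peroxidase, was higher by 1.21 ± 0.25. Cholesterol synthesis genes were called in both directions, 3 higher (17.6%) and 2 lower (11.8%) of 17, near the 13.7% and 13.0% of all genes. Without HSC replicate 5, 7 were higher. Lss, lanosterol synthase, differed by 1.12 ± 0.20 (adjusted p = 0.000699) and Hmgcs1, at the start of the pathway, by -0.67 ± 0.15 (adjusted p = 0.00402), and neither call held with the second brightest probe set (adjusted p = 0.677 and 0.247).

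**Figure D5:**
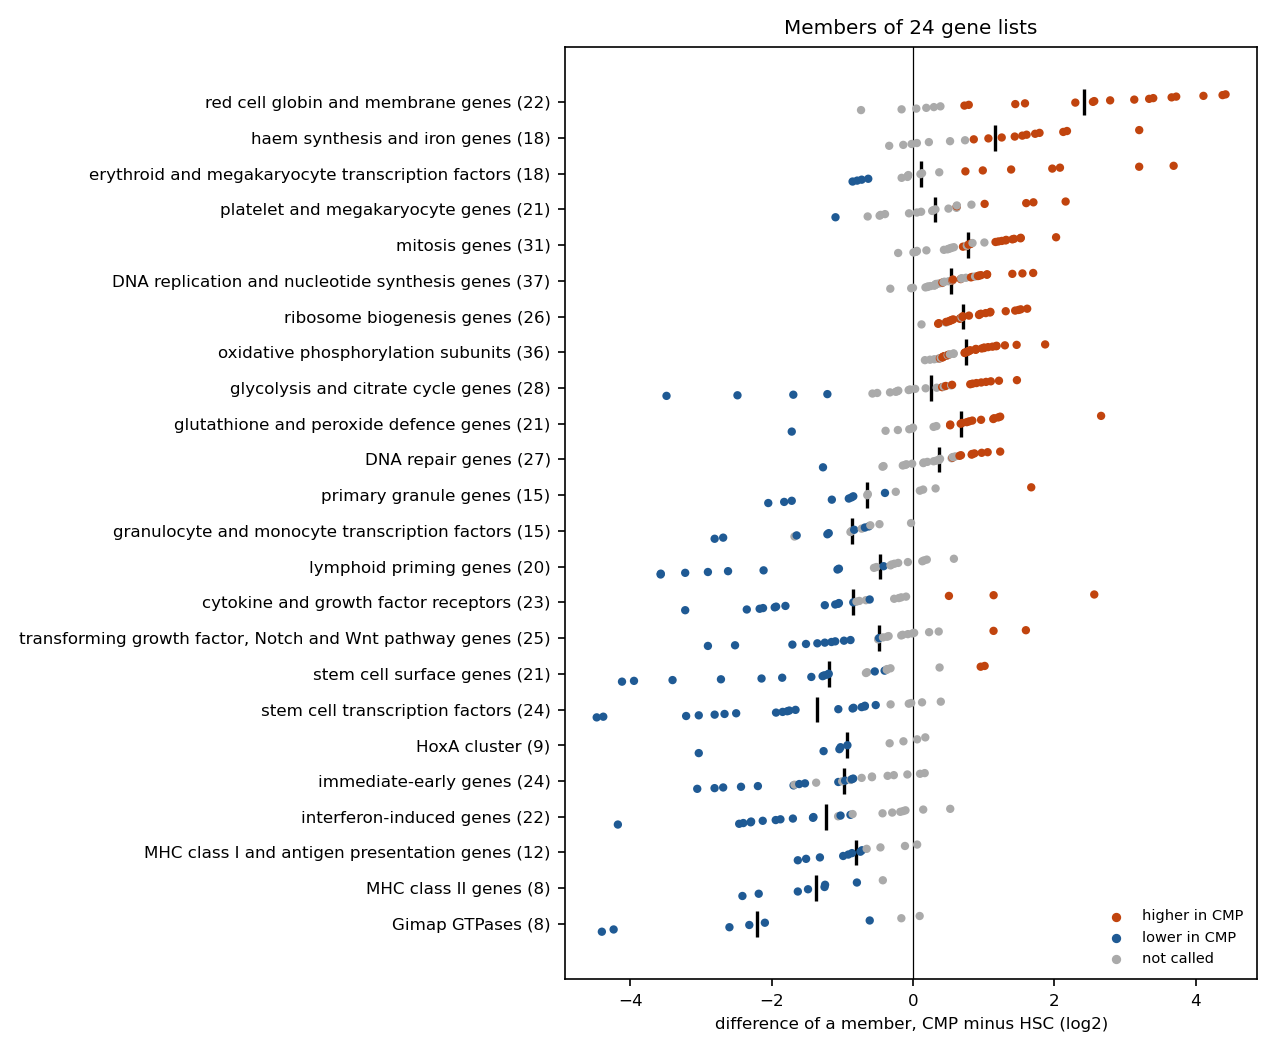
Difference of each measured member of 24 gene lists (horizontal axis, CMP minus HSC, log2), with members higher in CMP in orange, lower in blue and not called in grey, and the list median as a black bar. The number of measured members is given in brackets after each name. Red cell genes reach farthest to the right and have their median at 2.42, ribosome biogenesis genes lie wholly right of 0, and Gimap genes have their median at -2.21.

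Immediate-early genes, which respond within minutes to growth signals and to handling, were lower for 12 of 24 with 0 higher. Klf2, a quiescence factor, had 6.55, 6.28, 5.50, 5.56 and 5.94 in CMP, against 10.35, 9.29, 9.23, 9.36 and 6.86 in HSC (difference -3.05 ± 0.48, adjusted p = 0.000326). Socs3, the feedback inhibitor of cytokine signals, had 6.42, 7.52, 6.16, 6.32 and 7.16 in CMP, against 11.08, 9.77, 9.17, 9.92 and 7.66 in HSC (difference -2.81 ± 0.49, adjusted p = 0.000654). Btg2, an antiproliferative p53 target, had 7.61, 7.82, 7.09, 7.22 and 7.14 in CMP, against 10.77, 9.89, 10.01, 10.17 and 8.21 in HSC (difference -2.43 ± 0.37, adjusted p = 0.000212). For all 3, HSC replicate 1 was the highest and HSC replicate 5 the lowest of its group. The list mean was 8.34, 8.54, 7.88, 7.96 and 8.20 in CMP, against 10.55, 9.90, 9.20, 9.57 and 7.75 in HSC, so replicate 5 of HSC lay below every CMP replicate, and 19 genes were lower without it. The 3′ minus 5′ control difference was 4.35, 3.70, 3.39, 3.61 and 3.09 in HSC replicates 1 to 5, the same order among them as the list mean, and with it as a covariate 8 genes were lower and the median difference was -0.42, against -0.98 without it. The part of sample handling in these differences was not tested.

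Stress and survival genes did not move as a block. Heat-shock and chaperone genes were higher for 6 of 14 and lower for 2, and 0 were lower without CMP replicate 1 or 2 or HSC replicate 3. Hsph1, a cytosolic chaperone, had 10.39, 10.56, 10.64, 10.53 and 10.36 in CMP, against 8.70, 9.30, 9.29, 9.44 and 9.56 in HSC (difference 1.24 ± 0.16, adjusted p = 5.89e-05). Of 16 p53 response genes 2 were higher and 4 lower. Gadd45a, a stress inducible growth arrest gene, was higher at 1.50 ± 0.28 (adjusted p = 0.00115), and Trp53inp1 and Sesn1, both p53 targets, were lower at -2.48 ± 0.22 and -2.05 ± 0.16 (adjusted p = 2.59e-06 and 6.84e-07), and the second brightest probe set of Trp53inp1 gave no call (adjusted p = 0.0705). In the Bcl2 family, Bcl2, which blocks apoptosis, had 5.89, 6.50, 6.51, 6.08 and 6.10 in CMP, against 9.20, 8.88, 8.11, 8.64 and 7.07 in HSC (difference -2.16 ± 0.33, adjusted p = 0.00022). Mcl1, another survival member, had 10.19, 10.37, 10.23, 10.01 and 10.14 in CMP, against 12.56, 11.83, 11.77, 11.98 and 10.96 in HSC (difference -1.63 ± 0.22, adjusted p = 8.3e-05). Bid, which promotes apoptosis, was higher at 1.42 ± 0.29 (adjusted p = 0.0021). The 15 family members gave 2 higher (13.3%) and 2 lower (13.3%) in all, near the 13.7% and 13.0% of all genes.

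Interferon-induced genes were lower in CMP for 13 of 22, with 0 higher and a median difference of -1.23. Iigp1, an immunity GTPase, had 5.40, 4.30, 5.08, 5.16 and 3.99 in CMP, against 7.85, 9.08, 9.45, 8.31 and 10.12 in HSC (difference -4.18 ± 0.39, adjusted p = 3.66e-06). Ifitm1, which blocks viral entry, had 9.66, 9.42, 9.51, 8.38 and 9.02 in CMP, against 11.80, 11.91, 11.39, 11.57 and 11.62 in HSC (difference -2.46 ± 0.21, adjusted p = 1.78e-06). Rsad2, the antiviral enzyme viperin, had 7.13, 6.28, 6.78, 6.82 and 6.50 in CMP, against 8.92, 8.16, 9.44, 8.66 and 10.34 in HSC (difference -2.40 ± 0.33, adjusted p = 0.0001). HSC replicate 5 was the highest for Iigp1 and Rsad2 but not for Ifitm1. Oasl2, an oligoadenylate synthetase relative, was at least 4.5-fold lower in CMP (adjusted p = 0.0013), with 8.82 in HSC replicate 5. The second brightest probe set of Rsad2 gave no call (adjusted p = 0.35). The list mean was 6.72, 6.46, 6.41, 6.38 and 6.40 in CMP, against 7.26, 7.45, 7.77, 7.49 and 8.85 in HSC, without overlap.

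The Rsad2 promoter, on the minus strand at chr12:26456403-26456702 of GRCm38.p6 and from the same RefSeq table, is shown for the interferon response motif, searched as GAAANNGAAA on both strands and in capitals.
Rsad2: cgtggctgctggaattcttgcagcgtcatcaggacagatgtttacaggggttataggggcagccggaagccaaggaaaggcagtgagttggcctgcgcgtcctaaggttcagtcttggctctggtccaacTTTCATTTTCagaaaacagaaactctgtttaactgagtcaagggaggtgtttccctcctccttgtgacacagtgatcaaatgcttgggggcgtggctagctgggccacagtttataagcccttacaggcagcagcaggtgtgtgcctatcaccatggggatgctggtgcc
This motif occurred in 11 of 18 promoters of the list found in the table (61.1%), against 3.44% of all promoters, and the Ifitm1 and Oasl2 windows did not hold these letters.

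MHC class I and antigen presentation genes were lower for 8 of 12 with 0 higher. H2-K1, a class I heavy chain, had 10.99, 10.88, 10.91, 10.78 and 10.81 in CMP, against 12.52, 12.38, 12.46, 12.28 and 12.88 in HSC (difference -1.63 ± 0.11, adjusted p = 2.91e-07), and Nlrc5, the class I activator, had 7.05, 6.45, 7.18, 6.77 and 6.07 in CMP, against 8.71, 8.72, 7.89, 7.65 and 8.12 in HSC (difference -1.51 ± 0.26, adjusted p = 0.000636). Both were separated between the groups. Class I heavy chain genes are near copies, so a probe set may read more than the gene named.

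Chromatin regulators changed in single members. Tet1, which oxidises methylcytosine, had 5.53, 5.51, 5.69, 5.78 and 5.26 in CMP, against 7.71, 8.52, 7.89, 8.04 and 7.50 in HSC (difference -2.38 ± 0.20, adjusted p = 1.26e-06). Dnmt3b, a de novo DNA methyltransferase, had 8.80, 8.97, 8.70, 8.53 and 8.71 in CMP, against 10.30, 10.21, 9.77, 9.89 and 9.65 in HSC (difference -1.22 ± 0.16, adjusted p = 5.89e-05), and Dnmt3a, its relative, differed by -1.17 ± 0.30 with HSC replicate 2 inside the CMP range (adjusted p = 0.00903, or 0.0699 with the 3′ minus 5′ covariate). Among the other probe sets of Dnmt3a, one was called the opposite way, at 0.82 ± 0.22 (adjusted p = 0.014 over all probe sets), one was not called at -0.12 ± 0.17, and the others gave -1.16 ± 0.22 and -1.26 ± 0.18. Mbd2, a reader of methylated DNA, was higher at 0.94 ± 0.15 (adjusted p = 0.000364). Of 12 such genes 2 were higher and 4 lower. In the Polycomb group 2 of 20 were higher and 4 lower, with Pcgf5 at -1.16 ± 0.13 (adjusted p = 2.2e-05) and the core genes Ezh2, Eed and Suz12 not called. Imprinted growth-control genes, several of them active in resting stem cells, were higher for 4 of 19 and lower for 4. Ndn, the growth suppressor necdin, had 5.28, 4.51, 4.64, 4.69 and 5.24 in CMP, against 7.58, 7.91, 7.58, 8.56 and 6.50 in HSC (difference -2.76 ± 0.31, adjusted p = 1.9e-05), and Meg3, a noncoding RNA, had 5.06, 4.42, 4.66, 4.71 and 5.03 in CMP, against 10.52, 8.30, 6.30, 8.02 and 5.23 in HSC (difference -2.90 ± 0.71, adjusted p = 0.00725). Gatm, of creatine synthesis, was higher at 1.95 ± 0.29 (adjusted p = 0.000223).

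Adhesion genes were lower for 9 of 26 and higher for 2. Icam1, a ligand of leukocyte integrins, had 5.06, 5.53, 4.70, 5.01 and 5.67 in CMP, against 8.50, 7.31, 7.16, 7.11 and 7.33 in HSC (difference -2.29 ± 0.27, adjusted p = 2.96e-05), and Itgb1, the beta 1 integrin chain, was higher at 1.00 ± 0.22 (adjusted p = 0.00386). Stroma and endothelium genes were called for 1 higher (7.14%) and 3 lower (21.4%) of 14, against 13.7% and 13.0% of all genes. Col1a1, a bone and stroma collagen, had 3.37, 3.24, 3.63, 4.12 and 6.80 in CMP, against 3.36, 3.59, 3.53, 3.47 and 3.57 in HSC, and was above background in CMP replicate 5 alone. Col1a2, another collagen gene, had 5.23, 4.87, 5.24, 5.91 and 8.08 in CMP, against 4.82, 4.73, 5.08, 4.88 and 4.90 in HSC. It was above background in every replicate of both groups and was not called (adjusted p = 0.141).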

How the data were processed

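The authors deposited 1 table of 45101 probe sets and 51 arrays from Affymetrix mouse arrays as linear intensity values, produced by RMA, per the submitters' processing notes. RMA corrects background, equalises array quantiles and sums probes to a probe set. Its version and the set of arrays it was run on jointly are not stated in the sources used here. The number of arrays limits the precision, since array values carry no read depth.

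Values were turned to log2, 64 control probe sets were set apart, 34945 probe sets with a single gene symbol were kept (10092 had several or none), and 34741 symbols were checked through gene IDs against the RefSeq table of GRCm38.p6. A gene was represented by its brightest probe set on average across the 10 replicates, leaving 18193 genes. Runs of a CMP replicate were averaged. Groups came from the sample titles, and every column of the table was mapped to a sample. The 5 CMP and 5 HSC replicates were compared with limma 3.58.1 in R 4.3.3 (lmFit and eBayes with an intensity trend), with Benjamini-Hochberg adjustment over all genes and a threshold of 0.05. Single array measures were compared by exact permutation tests, two-sided, whose smallest possible p is 0.0079, in scipy 1.17.1. The code was tested on simulated data. A fold against a group below background is a lower bound, computed with the background level in place of that group where its own values were lower. Same-numbered CMP and HSC replicates correlated by -0.05, -0.02, 0.05, 0.05 and 0.12 in their deviations, so the numbers were not used as pairs.

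The members and 43 gene lists were chosen with earlier results of these data known, and 1 list (plasma cell genes) was added after the values were seen. Named genes were the 15 largest differences in each direction among called genes above background (clone names passed over), up to 4 called members a list with the largest called member of the opposite direction, and all genes of the gate list and the cell type markers. Not all of these are given in the text. Others named (Alas2, Bmi1, Ciita, Csf2rb, Csf3r, Ebf1, Eed, Erg, Ezh2, Fech, Foxo3, Gata2, globins, Glrx5, Ifngr1, Il6st, Irf4, Ldb1, Lmo2, the Mcm genes, Mmp8, Myb, Nfe2, Pax5, Slc4a1, Spi1, Suz12, Tal1, Tgfb1 and its receptors, Urod, Vpreb1 and Zfp521) were chosen after their values were seen. Alternatives were single runs, all runs with a random replicate term, other scalings, a filter on dim genes, other probe sets, no trend, a fit of all 8 groups, a replicate block, covariates for Y-linked level and for the 3′ minus 5′ control difference, leaving out each replicate, and leaving out HSC replicates 1 and 5 together, which was chosen after seeing the data.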

Additional observations from a re-analysis of the deposited data

Results flagged for a closer look

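Within a group of 5, a replicate is named here when its gap to the nearest other replicate took up more than 0.71 of the group's range. Chance gives about 1 in 20 groups such a gap, and 36 of 530 groups had one (6.79%), 11 of them in HSC replicate 5. All values are log2 RMA intensities. CMP replicate 1 had 4.24 for Adgre1 (others 3.94 to 3.99), 7.74 for Mxd4 (others 8.08 to 8.19) and 3.64 for Prdm1 (others 3.17 to 3.30). CMP replicate 1 also had 6.72 for the mean of interferon-induced genes (others 6.38 to 6.46). CMP replicate 2 had 3.45 for Cd79a (others 3.67 to 3.75), 9.14 for Igha (others 4.14 to 4.66) and 6.04 for Jchain (others 2.59 to 3.07). CMP replicate 2 also had 5.19 for the mean of plasma cell genes (others 4.39 to 4.52). CMP replicate 4 had 5.44 for Cbx2 (others 5.84 to 5.88) and 10.49 for Ndufa5 (others 10.16 to 10.24). CMP replicate 5 had 6.80 for Col1a1 (others 3.24 to 4.12), 8.19 for Epor (others 7.76 to 7.87) and 8.90 for Tgfbr3 (others 9.47 to 9.64). CMP replicate 5 also had 8.71 for the mean of glycolysis and citrate cycle genes (others 8.57 to 8.61). HSC replicate 5 had 8.66 for Alad (others 7.71 to 7.93), 10.35 for Csf1r (others 7.74 to 8.49) and 6.33 for Hoxa5 (others 7.45 to 7.75). HSC replicate 5 also had 12.50 for Ighm (others 14.00 to 14.25), 7.21 for Igkv8-30 (others 10.12 to 10.76) and 8.82 for Oasl2 (others 5.78 to 6.56). HSC replicate 5 further had 7.12 for Selp (others 6.02 to 6.21), 7.20 for the mean of platelet and megakaryocyte genes (others 5.92 to 6.22) and 10.02 for the mean of primary granule genes (others 8.76 to 9.09). HSC replicate 5 finally had 6.45 for the mean of monocyte and macrophage genes (others 5.32 to 5.56) and 7.09 for the mean of cholesterol synthesis genes (others 6.12 to 6.34). HSC replicate 4 had 7.36 for Lcn2 (others 4.51 to 5.17), 3.11 for Ncr1 (others 3.43 to 3.51) and 10.53 for Ngp (others 7.27 to 7.85). HSC replicate 4 also had 10.59 for S100a8 (others 7.17 to 7.84), 9.61 for S100a9 (others 6.18 to 6.40) and 7.08 for the mean of late granule and calprotectin genes (others 4.97 to 5.49). HSC replicate 1 had 7.14 for Hoxb4 (others 5.84 to 6.20), 8.50 for Icam1 (others 7.11 to 7.33) and 7.29 for the mean of transforming growth factor, Notch and Wnt pathway genes (others 6.89 to 6.99). HSC replicate 3 had 5.06 for Ring1 (others 5.63 to 5.79) and 5.94 for the mean of stem cell surface genes (others 6.36 to 6.45).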

How the results depend on the processing

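Of 2493 genes higher and 2357 lower in CMP, the counts stayed within 1.5 times of these in all alternatives except 3. With the 3′ minus 5′ control difference as a covariate 1638 genes were higher and 2012 lower, and 67.7% of the calls were made the same way. With the second brightest probe set 1241 were higher and 768 lower, of 9010 genes that have one. With a difference over 1 on the log2 scale required 927 were higher and 1187 lower. Leaving out each replicate gave 1998 to 3087 higher and 1958 to 2546 lower genes, and without HSC replicates 1 and 5 there were 3002 and 2694. Centring every replicate on its median moved all differences by 0.11 and gave 3621 higher and 1924 lower genes. With the second runs alone 2134 genes were higher and 2086 lower, and 83.6% of the calls were made the same way. The replicate block gave 2370 higher and 2296 lower genes. Same-numbered replicates did not all correlate best with each other, so the numbers showed no pairing. Of 187 called named genes 124 kept their call in every alternative run for them, 23 to 25 each. Over 4590 such comparisons 195 lost the call and 10 changed direction, all of the 10 with the second brightest probe set, at -0.088 for Bak1, 0.27 for Cbx2, 0.11 for Cybb, 0.24 for Ezh1, -0.033 for Gp1bb, 0.16 for Hsp90b1, 0.29 for Itgav, 0.14 for Mbd4, 0.81 for Selp and -0.0084 for Tgfbr3. The cause of these changes was not tested. Of 1100 list medians 93 moved by more than the replicate spread and 38 changed sign. Signal over background limits 371 called genes, which lay below 4.49 in both groups.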

Other observations

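A few further genes with large differences are given here, chosen after their values were seen. Mt1 and Mt2, the metallothioneins that bind zinc and copper, averaged 10.38 and 10.09 in CMP and 6.60 and 6.50 in HSC on the log2 scale, with differences of 3.78 ± 0.20 and 3.59 ± 0.27 (SE; limma adjusted p = 4.57e-08 and 6.26e-07). Atp7b, a copper exporter, averaged 8.12 in CMP and 4.37 in HSC, below the background level (difference 3.76 ± 0.20). Trib2, a pseudokinase that promotes Cebpa degradation, averaged 9.22 in CMP and 5.49 in HSC (difference 3.73 ± 0.31, adjusted p = 1.26e-06). On the lower side, the chemokine genes Ccl3 and Ccl4 averaged 6.30 and 5.65 in CMP and 10.17 and 8.14 in HSC, with differences of -3.86 ± 0.48 and -2.50 ± 0.37 (adjusted p = 4.24e-05 and 0.000207).

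In the Myc network 3 of 13 genes were higher and 3 lower, with Odc1, which begins polyamine synthesis, at 0.67 and Mxd1, a Myc antagonist, at -0.52. Of 12 mature T and NK cell genes 1 was called lower (8.33%), against 13.0% of all genes. This gene, Thy1, also marks stem cells and averaged 4.12 in CMP, below background, and 4.66 in HSC (adjusted p = 0.0413). The groups overlapped, and the Thy1 call was lost in 13 alternatives, among them leaving out CMP replicate 1, 2, 3 or 4 or HSC replicate 2, 3 or 5, the second runs alone (adjusted p = 0.213) and the fit of all 8 groups (adjusted p = 0.403). Of 4 sex-linked genes 0 were called by limma.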
